A study of Mus musculus with 6 samples.

Results

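Ackr2 and Ackr3 encode atypical chemokine receptors, and both were read in keratinocytes of the back-skin epidermis of K14ΔNLef1 transgenic mice, against wild type mice. They were taken as all probe sets annotated to exactly 1 of the 2 genes, under the older symbols Ccbp2 for Ackr2 and Cxcr7 for Ackr3. This gave 3 probe sets for Ackr2 and 4 for Ackr3, or 7 of 109751 probe sets with 1 symbol and 2 of 11280 genes. The genes were chosen by their log2 values in K14ΔNLef1 against wild type on these same arrays, so their differences between the genotypes are given below as a description, without a test. The 3 K14ΔNLef1 samples came from female mice of 9.5 weeks on a C57BL6/CBA background that carry a Lef1 without its N-terminal part, the part that binds beta-catenin, driven by the keratin 14 promoter, which is active in basal keratinocytes. The 3 wild type samples came from female mice of the same age and background. The transgenic mice are not stated to lack their own Lef1, and the cells are called unfractionated keratinocytes, although the extraction is described as following cell sorting. Each sample has 1 exon array, where several probe sets read a gene, and a gene's value is the mean of the log2 intensities of its probe sets. Differences are log2 values of K14ΔNLef1 minus those of wild type, and errors are the SD over 3 arrays or the SE of the difference.

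Chemokines are secreted proteins that draw leukocytes into tissue through receptors that signal by G proteins. Atypical chemokine receptors do not give that signal. Of these, ACKR2 and ACKR3 bind chemokines and carry them into the cell, where they are degraded, which lowers or shapes the chemokine outside. ACKR2, once called D6, takes up inflammatory CC chemokines and is known from lymphatic endothelium and from skin, where mice without it resolve inflammation slowly. ACKR3, once called CXCR7, takes up CXCL12 and CXCL11, binds beta-arrestin, and also takes up other peptides such as adrenomedullin and enkephalins.

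The promoter sequences are shown because the transgene encodes a DNA-binding factor of the Tcf and Lef family, whose sites share the core CTTTG. They are the 250 bases before the gene start in RefSeq, build GRCm38.p6, on the gene's strand, with each CTTTG of either strand in capitals. That of Ackr2 lies at chr9:121898105-121898354 (+) and that of Ackr3 at chr1:90203730-90203979 (+).
Ackr2: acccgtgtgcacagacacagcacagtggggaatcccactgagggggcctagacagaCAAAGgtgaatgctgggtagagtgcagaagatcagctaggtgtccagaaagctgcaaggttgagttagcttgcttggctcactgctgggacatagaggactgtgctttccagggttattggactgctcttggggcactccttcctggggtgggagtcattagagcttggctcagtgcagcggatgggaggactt
Ackr3: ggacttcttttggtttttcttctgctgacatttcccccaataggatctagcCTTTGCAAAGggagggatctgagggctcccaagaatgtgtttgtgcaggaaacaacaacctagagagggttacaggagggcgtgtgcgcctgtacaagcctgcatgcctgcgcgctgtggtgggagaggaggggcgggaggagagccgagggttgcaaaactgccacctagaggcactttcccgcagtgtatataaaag
The Ackr2 promoter held 1 core, on the opposite strand, 190 to 194 bases before the start. The Ackr3 promoter held 2, on both strands, side by side from 190 to 199 bases before the start. Of 32851 promoters of this length, 48.6% held at least 1 core. The longer form, CTTTG with 2 more bases that are each A or T, searched on both strands, was in neither promoter and in 14.8% of all promoters. A match describes these letters only. No binding was measured here.

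Lef1 was read first as a check of the labels. Its gene value was 11.11, 11.13 and 11.24 in K14ΔNLef1 replicates 1, 2 and 3, against 5.81, 7.02 and 6.26 in wild type replicates 1, 2 and 3. K14ΔNLef1 replicate 1 stood apart from the other arrays. Its gene values spanned 4.17 log2 units between the 5th and 95th percentiles, where the other K14ΔNLef1 arrays spanned 4.78 and 4.95 and the wild type arrays 4.91 to 5.07, and its median intensity was 154.2, against 190.0 to 203.2 on the other 5 arrays. Of the defining keratinocyte genes, the keratin genes Krt14 and Krt5 averaged 12.97 ± 0.14 and 12.24 ± 0.25 in K14ΔNLef1, against 12.94 ± 0.05 and 12.41 ± 0.08 in wild type (SD, n = 3). Both keratin genes lay above the 95th percentile of gene values on every array. Over the 10 keratinocyte markers fixed for this check, 9 were lower in K14ΔNLef1, where 6450 of 11280 genes were lower. Of the 10, 5 were lower without overlap, where 11.8% of all genes were, and none was past the test. Krt1, Krt10 and Cdh1 were at -0.74, -0.60 and -0.44. These 10 markers averaged 10.66 on K14ΔNLef1 replicate 1. The 95th percentile of gene values was 9.29 there, against 9.82 to 10.04 on the other 5 arrays.

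Ackr2 was lower in every K14ΔNLef1 sample. Its gene value was 7.17, 6.28 and 6.19 in K14ΔNLef1 replicates 1, 2 and 3, against 8.96, 9.37 and 8.83 in wild type replicates 1, 2 and 3. The genotypes did not overlap, as for 11.8% of all genes with lower K14ΔNLef1 values, and the highest K14ΔNLef1 sample lay 1.66 below the lowest wild type sample. The means were 6.55 ± 0.54 in K14ΔNLef1 and 9.05 ± 0.28 in wild type (SD, n = 3), a difference of -2.50 (SE 0.35), or 5.67-fold lower intensity. Within K14ΔNLef1, replicate 1 was the highest, at -1.88 from the wild type mean, where replicates 2 and 3 were at -2.77 and -2.86. With each array's own median subtracted, Ackr2 was at -0.10, -1.29 and -1.47 in K14ΔNLef1 replicates 1, 2 and 3, against 1.34, 1.79 and 1.19 in wild type. Replicate 1, already the highest, had a median of 7.27, against 7.57 and 7.67 on replicates 2 and 3. The subtraction could therefore only raise replicate 1 further above them. Counting Ackr2 itself, 20 of 11280 genes, or 0.177%, had a difference as low or lower. In samples of mixed cells, fewer cells of a type and less RNA per cell cannot be told apart.

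All 3 Ackr2 probe sets were lower in K14ΔNLef1, by unequal amounts. Probe set 5034304 was at 7.21, 6.18 and 6.40 in K14ΔNLef1 replicates 1, 2 and 3, against 10.34, 10.16 and 10.40 in wild type, a difference of -3.70 (SE 0.32). Probe set 4637603 was at 6.38, 5.72 and 5.23 in K14ΔNLef1, against 7.46, 8.27 and 7.77 in wild type, a difference of -2.06 (SE 0.41). Probe set 5269437 was at 7.92, 6.93 and 6.95 in K14ΔNLef1, against 9.08, 9.66 and 8.33 in wild type, a difference of -1.75 (SE 0.51). None of the 3 overlapped between the genotypes, and replicate 1 was the highest K14ΔNLef1 array in each. Among all 109751 probe sets, 9.46% lay lower in K14ΔNLef1 without overlap. Probe set 5034304, the one with the largest difference of the 3, was also the one with the smallest spread in wild type, at a range of 0.24, where 5269437 ranged over 1.34. Which exons these probe sets read was not analysed here.

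**Figure D1:**
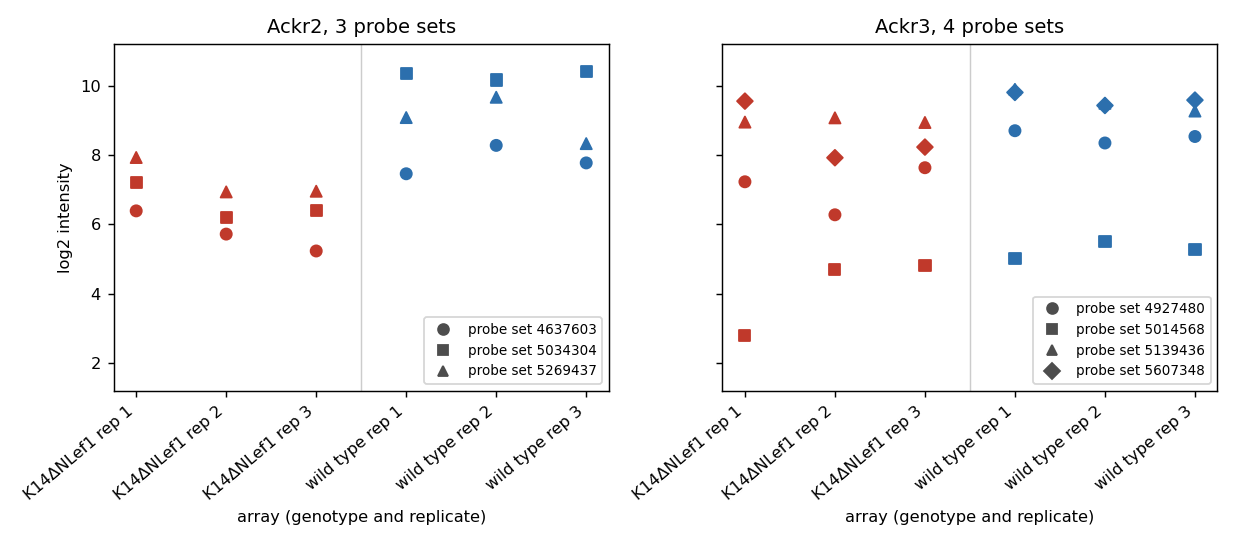
Log2 intensity (vertical axis) of each probe set of Ackr2 (left) and Ackr3 (right) on the 3 K14ΔNLef1 arrays (red) and the 3 wild type arrays (blue), with 1 marker shape per probe set. All 3 Ackr2 probe sets and 3 of 4 Ackr3 probe sets lie lower on every K14ΔNLef1 array than on any wild type array. Of all 109751 probe sets, 9.46% do.

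Ackr3 was also lower in every K14ΔNLef1 sample, by a smaller difference than Ackr2. Its gene value was 7.13, 6.99 and 7.40 in K14ΔNLef1 replicates 1, 2 and 3, against 8.35, 8.19 and 8.16 in wild type replicates 1, 2 and 3. The genotypes did not overlap, as for 11.8% of all genes with lower K14ΔNLef1 values. The highest K14ΔNLef1 sample lay 0.76 below the lowest wild type sample. The means were 7.17 ± 0.21 in K14ΔNLef1 and 8.23 ± 0.10 in wild type (SD, n = 3), a difference of -1.06 (SE 0.14), or 2.09-fold lower intensity. Of all genes, 1.90% had a difference as low or lower. With each array's median subtracted, Ackr3 was at -0.14, -0.58 and -0.27 in K14ΔNLef1 replicates 1, 2 and 3, against 0.73, 0.62 and 0.52 in wild type. Among the K14ΔNLef1 arrays, replicate 1 lay between the other two for Ackr3 as deposited and was the highest with the medians subtracted.

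The 4 Ackr3 probe sets did not vary alike among the K14ΔNLef1 arrays. Probe set 4927480 was at 7.22, 6.27 and 7.63 in K14ΔNLef1 replicates 1, 2 and 3, against 8.70, 8.34 and 8.53 in wild type, a difference of -1.48 (SE 0.42). Probe set 5139436 was at 8.95, 9.07 and 8.93 in K14ΔNLef1, against 9.89, 9.49 and 9.26 in wild type, a difference of -0.56 (SE 0.19). These 2 did not overlap between the genotypes, where 9.46% of all 109751 probe sets lay lower in K14ΔNLef1 without overlap. The second had the tightest K14ΔNLef1 values of the 7 probe sets, within 0.13. Probe set 5607348 was at 9.55, 7.92 and 8.23 in K14ΔNLef1, against 9.80, 9.43 and 9.58 in wild type, a difference of -1.04 (SE 0.51). It did overlap, since replicate 1 lay above wild type replicate 2. Probe set 5014568 was at 2.79, 4.69 and 4.81 in K14ΔNLef1, against 5.016, 5.497 and 5.260 in wild type, a difference of -1.16 (SE 0.67). This probe set did not overlap between the genotypes either. It was dim, at the 4.47 percentile of all probe sets on the K14ΔNLef1 arrays and the 10.5 percentile on the wild type arrays (means of 3 arrays), and replicate 1 was its lowest value. On replicate 1, 5607348 was thus high and 5014568 low, and the 2 offset each other in the mean. Without the dim probe set, chosen after its values were seen, Ackr3 was at 8.57, 7.75 and 8.26 in K14ΔNLef1, against 9.46, 9.09 and 9.13 in wild type, a difference of -1.03.

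**Figure D2:**
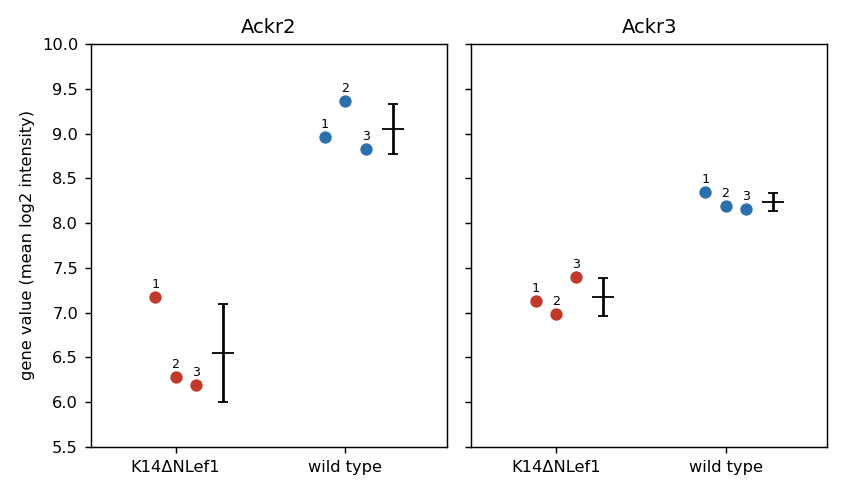
Gene values (mean log2 intensity of the probe sets, vertical axis) of Ackr2 and Ackr3 in K14ΔNLef1 (red) and wild type (blue), with 1 point per sample numbered by replicate and the mean ± SD in black. K14ΔNLef1 and wild type samples do not overlap for either gene, with means of 6.55 and 9.05 for Ackr2 and 7.17 and 8.23 for Ackr3. Of all genes, 11.8% lie lower in K14ΔNLef1 without overlap.

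Genes next to the receptors on the chromosome were examined to see whether the lower levels extended to them. Of the 12 measured genes nearest to the receptors, 3 on each side of each, none passed the limma test over all genes at an adjusted p of 0.05, and 1 had an unadjusted p under 0.05, where 1.16% and 11.8% of all genes did. The genotypes did not overlap for 2 of the 12, Higd1a and Snrk, where 18.7% of all genes had no overlap. The differences of the 12 ran from -0.63 to 0.39. The nearest measured gene before Ackr2, Higd1a, a mitochondrial protein induced by low oxygen, had the lowest of these, at 8.56, 8.84 and 9.22 in K14ΔNLef1 replicates 1, 2 and 3, against 9.38, 9.63 and 9.51 in wild type (limma adjusted p of 0.286). The nearest measured gene after Ackr2, Cyp8b1, differed by -0.27, and those on either side of Ackr3, Asb18 and Cops8, by 0.04 and -0.22.

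The ligands of ACKR2 went in different directions. All 9 inflammatory CC chemokine genes listed for ACKR2 were measured, and 0 rose and 0 fell (limma, adjusted p at or under 0.05 over 11280 genes). Of all genes 1.16% passed, with 0.328% that rose and 0.833% that fell. At an unadjusted p under 0.05, 2 were higher and 2 lower, where 4.21% of all genes were higher and 7.58% lower. The median difference of the ligands was 0.06, against -0.05 over all genes. Ccl5, which draws T cells and is read here by 1 probe set, was at 7.53, 8.75 and 7.90 in K14ΔNLef1 replicates 1, 2 and 3, against 7.31, 6.29 and 6.26 in wild type replicates 1, 2 and 3. Its difference was 1.44 (SE 0.38, limma adjusted p of 0.165), with no overlap, as for 18.7% of all genes, counting both directions. Ccl22, a ligand of CCR4, a chemokine receptor of T cells, was at 6.83, 6.55 and 6.75 in K14ΔNLef1, against 6.32, 6.19 and 6.28 in wild type, a difference of 0.45 (limma adjusted p of 0.349).

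Ccl2 and Ccl7, which draw monocytes, were the 2 ligands lower at an unadjusted p under 0.05. Ccl2 was at 6.32, 6.62 and 6.24 in K14ΔNLef1 replicates 1, 2 and 3, against 7.69, 6.90 and 6.64 in wild type, a difference of -0.69 (limma adjusted p of 0.393). Ccl7 was at 6.20, 6.25 and 5.83 in K14ΔNLef1, against 7.31, 6.62 and 6.36 in wild type, a difference of -0.67 (limma adjusted p of 0.379). Both had their highest value in wild type replicate 1. Neither overlapped between the genotypes, as for 11.8% of all genes with lower K14ΔNLef1 values. The 5 other ligands, Ccl3, Ccl4, Ccl11, Ccl12 and Ccl17, overlapped, with differences of -0.07, 0.21, -0.04, 0.17 and 0.06.

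Of the ligands listed for ACKR3, 3 of 6 were measured and none passed, with 1 higher and 1 lower at an unadjusted p under 0.05. Of all genes, 1.16% passed, and at that unadjusted p 4.21% were higher and 7.58% lower. Cxcl12, the chemokine shared with the signalling receptor CXCR4, was at 6.42, 6.01 and 6.64 in K14ΔNLef1 replicates 1, 2 and 3, against 7.18, 6.58 and 7.19 in wild type. Its difference was -0.63 (SE 0.25, limma adjusted p of 0.370), and K14ΔNLef1 replicate 3 lay above wild type replicate 2. The enkephalin precursor gene Penk was at 6.942, 6.920 and 8.001 in K14ΔNLef1, against 5.76, 6.16 and 6.86 in wild type, a difference of 1.03 (limma adjusted p of 0.321), or 0.67 without K14ΔNLef1 replicate 3. The dynorphin precursor gene Pdyn differed by 0.33. Cxcl11, Adm and Mif were not analysed here.

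Among other chemokines, 22 of 27 were measured and none passed. The 2 with an unadjusted p under 0.05 were both higher, where 4.21% of all genes were higher and 7.58% lower at that p. Cxcl1, a neutrophil chemokine read by 1 probe set, was at 7.47, 7.74 and 9.61 in K14ΔNLef1 replicates 1, 2 and 3, against 6.23, 6.69 and 7.16 in wild type, a difference of 1.58 (SE 0.53, limma adjusted p of 0.286), or 0.91 without K14ΔNLef1 replicate 3. Ccl28, a chemokine of epithelia read by 1 probe set, differed by 0.51 (limma adjusted p of 0.415), or 0.20 with array weights. The median of the list was 0.12. Without K14ΔNLef1 replicate 1, Cxcl9, an interferon-induced ligand of CXCR3, rose by 0.995 (limma adjusted p of 0.0241), against 0.61 with all arrays. It was named after its values were seen, and in that fit 2.12% of all genes passed.

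The other atypical receptors measured, 2 of 3, did not pass. Ccrl2, which holds the chemoattractant chemerin at the cell surface, was at 4.92, 4.66 and 4.75 in K14ΔNLef1 replicates 1, 2 and 3, against 5.47, 5.11 and 5.35 in wild type. Its difference was -0.53 (SE 0.18, limma adjusted p of 0.295), with no overlap, as for 11.8% of all genes with lower K14ΔNLef1 values. The alternatives ran from -1.19, with the median of its probe sets, to -0.42, with array medians made equal. Ccrl2 was dim. On K14ΔNLef1 replicates 1, 2 and 3 it lay below the 5th percentile of gene values, at 5.13, 5.04 and 5.05. On the wild type arrays it lay above that percentile, at 5.04, 5.01 and 4.97. The filters on dim probe sets and on dim genes gave no value for it. Ackr1, the Duffy receptor of red cells and venules, was at 5.45, 4.87 and 5.07 in K14ΔNLef1, against 5.56, 5.19 and 4.89 in wild type. These overlapped, and the difference of -0.08 was 0.03 once the arrays were shifted to the same median. Ackr4 was not analysed here.

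The signalling receptors that share ligands with ACKR2 and ACKR3 had no common direction. Of 7 listed, 6 were measured and none passed, with 1 higher and 1 lower at an unadjusted p under 0.05. At that p, 4.21% of all genes were higher and 7.58% lower. Cxcr4, the signalling receptor for CXCL12, was at 6.51, 7.38 and 6.94 in K14ΔNLef1 replicates 1, 2 and 3, against 6.52, 5.69 and 5.99 in wild type. Its difference was 0.88 (SE 0.29, limma adjusted p of 0.278), opposite in sign to those of Ackr3 and Cxcl12, with K14ΔNLef1 replicate 1 just below wild type replicate 1. Ccr4, read by 1 probe set, was at 4.048, 4.999 and 5.766 in K14ΔNLef1, against 6.64, 5.87 and 5.64 in wild type, a difference of -1.11 (limma adjusted p of 0.367), or -0.67 without K14ΔNLef1 replicate 1. Ccr1, Ccr2, Ccr3 and Cxcr3 differed by 0.24, 0.36, -0.25 and 0.62. Of the remaining signalling receptors, 9 of 11 were measured, none passed and none had an unadjusted p under 0.05. The largest differences of these were 0.84 for Cxcr2 and 0.80 for Ccr6, both with overlap. They were 0.29 and 0.13 over the brighter of their probe sets. Without K14ΔNLef1 replicate 2 or wild type replicate 2, Cxcr2 was at 0.40 or 0.50, and with array weights at 1.54. Ccr6 was at 0.43 without K14ΔNLef1 replicate 3, and at 1.30 or 1.23 without K14ΔNLef1 replicate 1 or wild type replicate 1.

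Proteins that move such receptors through the cell were read in part, with 8 of 14 genes measured and none past the test. Grk5, a kinase that marks receptors for arrestin binding, was at 6.90, 7.15 and 7.12 in K14ΔNLef1 replicates 1, 2 and 3, against 6.24, 5.42 and 6.57 in wild type. The difference was 0.98 (SE 0.29, limma adjusted p of 0.217), though it was -0.06 over the brighter of its probe sets alone and 0.66 without wild type replicate 2. Rab11a, a small GTPase of recycling endosomes, was at 8.693, 9.004 and 9.387 in K14ΔNLef1, against 9.62, 9.68 and 9.63 in wild type, a difference of -0.61 (limma adjusted p of 0.299). Grk3, a related kinase given outside the rule for named genes, was at 5.67, 5.96 and 7.22 in K14ΔNLef1, against 5.65, 5.40 and 5.35 in wild type. Its difference was 0.82 (limma adjusted p of 0.460), and K14ΔNLef1 replicate 3 was the highest. The genotypes did not overlap, as for 18.7% of all genes, counting both directions. K14ΔNLef1 replicate 1 lay only just above wild type replicate 1 (5.665 against 5.646). Grk2, Grk6, Rac1, Limk1 and Rab5a differed by 0.06, -0.08, -0.30, 0.09 and -0.19. The beta-arrestin genes Arrb1 and Arrb2 were not analysed here.

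Over all 7 lists, 59 of 77 genes were measured, 38 were higher and 21 lower, where 4830 of all genes were higher and 6450 lower, and 0 passed the limma test, with 7 higher and 6 lower at an unadjusted p under 0.05. Over all genes, 11.8% had an unadjusted p under 0.05. The genotypes did not overlap for 12 of the 59 genes, where 18.7% of all genes had no overlap. The lowest difference of the 59 was that of Ccr4, -1.11, or -0.67 without K14ΔNLef1 replicate 1. Leukocyte markers were higher in 9 of 9, with a mean difference of 0.68, and their part in these values was not tested. The count of 0 depended on the fit: with array weights 11 of the 59 passed, where 11.5% of all genes did, and with adjacent sample numbers of the descriptions as a block Ccl5 passed (limma adjusted p of 0.0364), where 0.807% of all genes did.

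**Figure D3:**
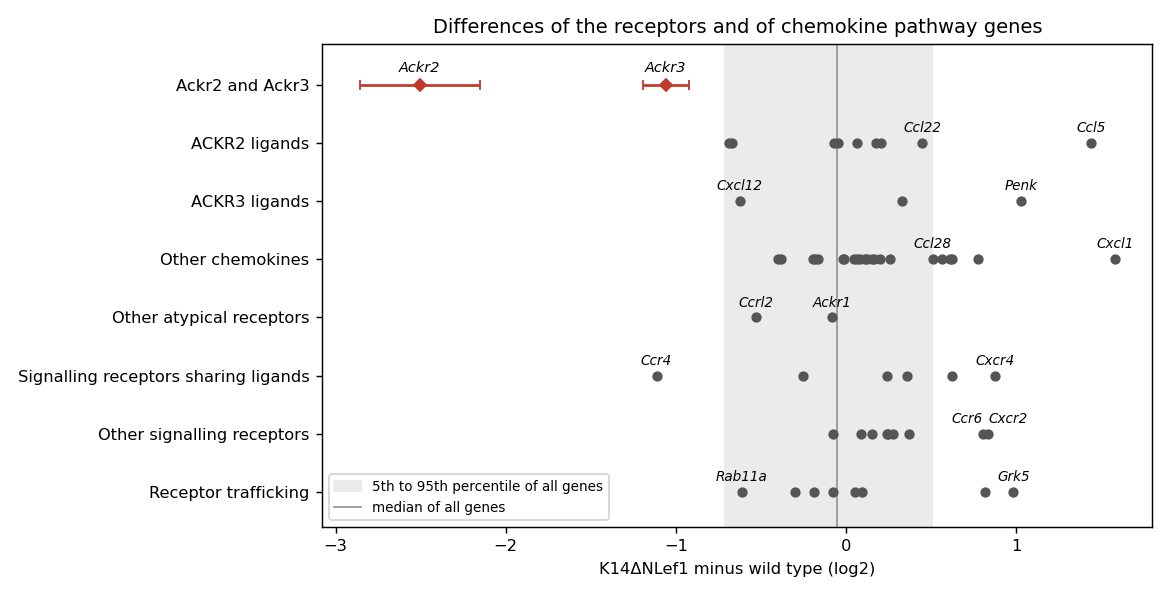
Difference of gene values, K14ΔNLef1 minus wild type (horizontal axis, log2), of Ackr2 and Ackr3 with their SE (red) and of the 59 measured genes of the 7 lists (grey points, named where the rule for named genes chose them). The grey band spans the 5th to 95th percentile of all genes, from -0.71 to 0.51. Ackr2 at -2.50 and Ackr3 at -1.06 lie to the left of it.

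Genes whose pattern over the 6 arrays was most like that of each receptor were found by the root mean square distance between values, each gene centred on its own wild type mean. For Ackr2 these were Wnt5a, at a distance of 0.30, Chit1 at 0.32, Fam81a at 0.43, Rspo3 at 0.43 and Prss23 at 0.48, of 8980 genes with at least 4 probe sets. Wnt5a, a Wnt ligand that acts largely without beta-catenin, averaged 5.08 ± 0.25 in K14ΔNLef1 and 7.40 ± 0.12 in wild type (SD, n = 3). Wnt5a was dim in K14ΔNLef1. On replicates 2 and 3 it was at 4.93 and 4.95, below the 5th percentile of gene values, at 5.04 and 5.05. On replicate 1 it was at 5.37, above that percentile, at 5.13. Chit1, a chitinase, averaged 7.20 ± 0.22 in K14ΔNLef1 and 9.78 ± 0.09 in wild type. Rspo3, which strengthens Wnt signals, averaged 5.56 ± 0.43 in K14ΔNLef1 and 8.20 ± 0.42 in wild type. On replicate 1, the highest K14ΔNLef1 array for Ackr2, Wnt5a, Chit1 and Rspo3 also had their highest K14ΔNLef1 value, while Fam81a and Prss23 had their lowest.

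For Ackr3 the nearest were Ipmk, at a distance of 0.09, Ttc8 at 0.12, Rbbp9 at 0.13, Cab39l at 0.14 and Dgcr6 at 0.14. Ipmk, an inositol phosphate kinase, averaged 9.75 ± 0.09 in K14ΔNLef1 and 10.84 ± 0.10 in wild type (SD, n = 3). Ttc8, a protein of the complex that sorts cargo to cilia, averaged 6.24 ± 0.19 in K14ΔNLef1 and 7.29 ± 0.06 in wild type. The distances were shorter than for Ackr2, and no gene was among the 5 nearest of both receptors. The distance counts the size of a difference, which was -2.50 for Ackr2 and -1.06 for Ackr3. Differences as low or lower were found for 20 genes at that of Ackr2 and 214 at that of Ackr3. Neither outcome therefore tells whether the receptors vary alike. The nearest genes were matched on the same 6 arrays, so their likeness is a description.

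**Figure D4:**
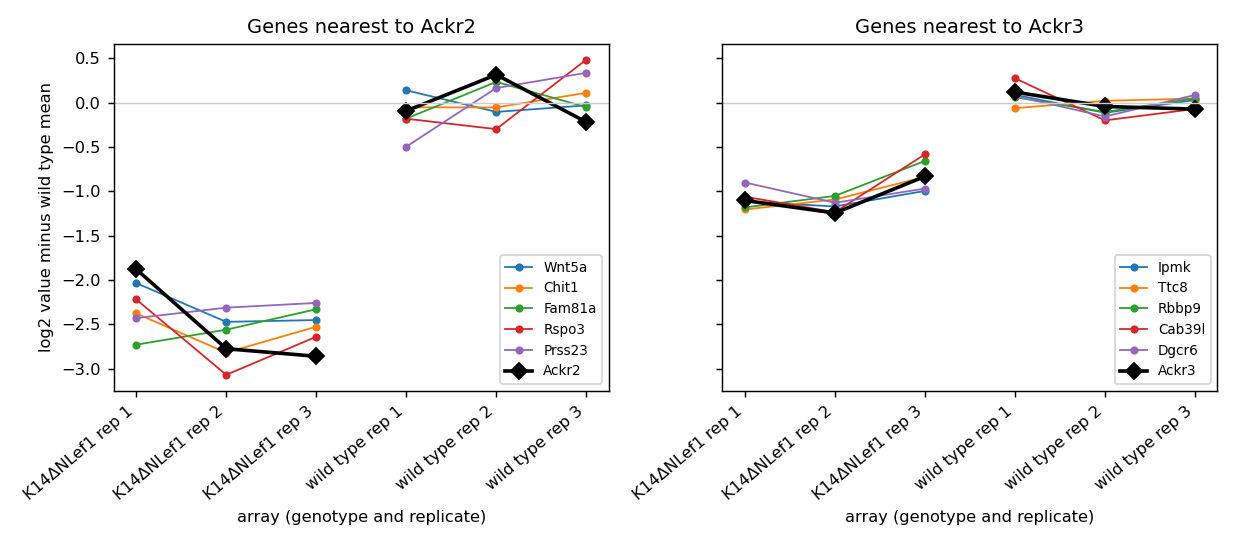
Gene value minus the gene's wild type mean (vertical axis, log2) on each array for the 5 genes nearest to Ackr2 (left) and to Ackr3 (right), with the receptor in black. Lines join values of 1 gene within a genotype and stand for no order of replicates. All genes shown lie lower on each K14ΔNLef1 array than on any wild type array, as do 11.8% of all genes.

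Cell type markers moved with the genotype in some lists. The 10 interfollicular keratinocyte markers averaged 10.66 to 11.23 on the K14ΔNLef1 arrays, against 11.26 to 11.36 on the wild type arrays, a difference of -0.34. The 5 lymphatic endothelial markers measured of 7, of a cell type known for ACKR2, averaged 6.77 to 7.15 on the K14ΔNLef1 arrays, against 6.43 to 6.62 on the wild type arrays, a difference of 0.46 with a median over the markers of 0.11. The separation of the genotypes rested on Pdpn. Without it, a choice made after seeing the data, the other 4 averaged 6.08 to 6.53 on the K14ΔNLef1 arrays, against 6.03 to 6.17 on the wild type arrays, and overlapped. The 1 member past the test was Pdpn, also expressed by keratinocytes, which rose by 1.53 (limma adjusted p of 0.0167, named after its values were seen). Without wild type replicate 1, 2 or 3 its limma adjusted p was 0.0560, 0.0989 or 0.0978, and with the median of its probe sets 0.0948. Prox1, the transcription factor that defines lymphatic endothelium, was at 5.43 ± 0.21 in K14ΔNLef1 and 5.46 ± 0.38 in wild type, and Lyve1, a hyaluronan receptor of lymphatics, at 6.90 ± 0.47 in K14ΔNLef1 and 6.29 ± 0.02 in wild type (SD, n = 3).

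The other lists overlapped between the genotypes. The 9 leukocyte markers measured of 10 were all higher in K14ΔNLef1 by their means, with a median difference of 0.66 and none past the test. They averaged 7.31, 8.68 and 8.06 on K14ΔNLef1 replicates 1, 2 and 3, against 7.72, 6.98 and 7.31 on wild type replicates 1, 2 and 3, and Ccl5 and Cxcr4 were likewise highest on K14ΔNLef1 replicate 2. The 7 blood endothelial markers measured of 8 averaged 5.95 to 6.26 in K14ΔNLef1 and 5.94 to 6.06 in wild type. The 8 fibroblast markers averaged 6.776 to 7.040 in K14ΔNLef1 and 6.592 to 6.786 in wild type, and so overlapped only just. The 7 hair follicle markers measured of 8 averaged 8.88 to 9.22 in K14ΔNLef1 and 8.82 to 9.06 in wild type. The 5 melanocyte markers measured of 6 averaged 6.36 to 6.79 in K14ΔNLef1 and 6.08 to 6.48 in wild type. By their means, 5 of the 7 blood endothelial and 7 of the 8 fibroblast markers were higher in K14ΔNLef1. So were 4 of the 7 hair follicle and 4 of the 5 melanocyte markers, where 4830 of 11280 genes were higher. No marker was listed at 0, since the table gives an intensity for every probe set and no detection call. The part of these shifts in the values of Ackr2 and Ackr3 was not tested.

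**Figure D5:**
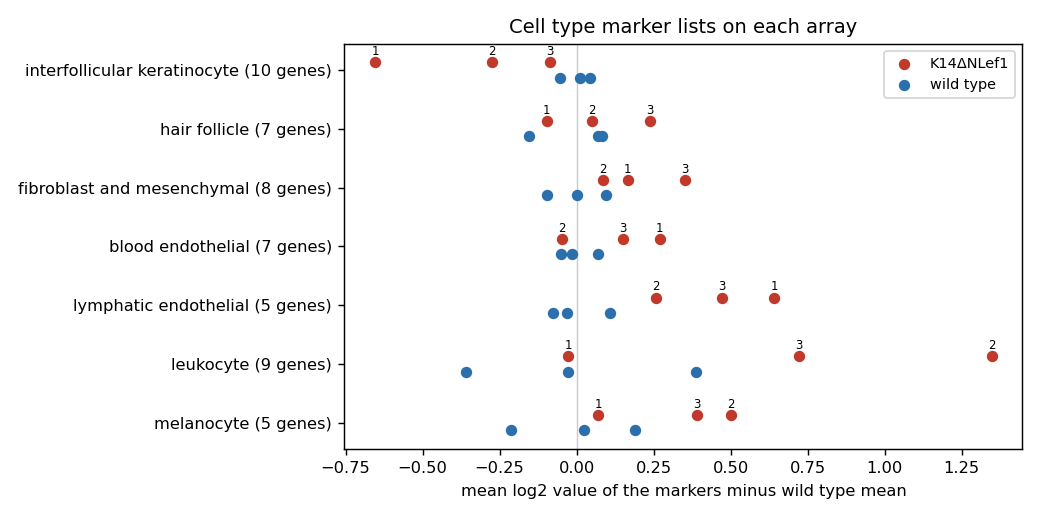
Mean log2 value of each marker list on each array, minus the list's wild type mean (horizontal axis), for K14ΔNLef1 (red, numbered by replicate) and wild type (blue). Keratinocyte markers lie lower on all 3 K14ΔNLef1 arrays than on any wild type array. The mean of the lymphatic endothelial markers lies higher there, but overlaps without Pdpn, and the other 5 lists overlap.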

How the data were processed

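RNA of 6 samples was amplified and hybridised to exon arrays, per the labels' protocols. The deposited table holds 1 linear intensity per probe set and array, made with RMA and Affymetrix Power Tools on build mm9, per the submitters' processing notes, with versions and any filter not given in the sources used here. Of 114330 probe sets, 109751 had 1 gene symbol in the platform annotation, 834 had several and 3745 had none listed. Older symbols were updated through the GRCm38.p6 RefSeq gene table for 1228 symbols, and 11245 of 11280 genes were then found in it. RefSeq promoters were matched by symbol for 2 of 2 receptors.

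The log2 of each deposited intensity was taken. Genes were fitted on genotype alone (lmFit, then eBayes, limma 3.58.1 under R 4.3.3, two-sided tests), without a filter on low values, with Benjamini-Hochberg adjustment over all genes and a threshold of 0.05. The receptors, the lists and the tests were chosen with earlier results of these data known. Named genes are the receptors, Lef1, up to 4 genes that passed in each list or the 2 with the smallest p, the ligands and receptors that share them, the 5 nearest patterns and 3 neighbours on each side. Tested on simulated data for 3 K14ΔNLef1 against 3 wild type arrays with 11280 genes, the fit called 87% of genes shifted by a log2 of 2, 96% of genes shifted by 3 and 10 unshifted genes. The simulated noise was independent between genes, with the same SD in both genotypes. The 59 pathway genes differed by -1.11 to 1.58, less than the simulated shifts, so these shares do not give the power for them. Nothing says that samples came from separate litters, so the p-values measure the spread between these samples, and precision is limited by the number of arrays. Python 3.11.15 was used with pandas 2.3.3 for the tables and matplotlib 3.10.9 for the plots. Alternatives were the median of probe sets, filters on dim probe sets or genes, 2 normalizations, trend and robust moderation, array weights, 2 blocks and each replicate left out.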

Additional observations from a re-analysis of the deposited data

How the results depend on the processing

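The receptors were chosen by the difference given here. In the 12 alternatives that can move it, the Ackr2 difference lay between -2.83 and -2.33, and in 13 that of Ackr3 lay between -1.31 and -0.91. Another 4, the filter on dim genes, the eBayes settings and both blocks, leave the difference as it is by construction. With 1 array left out they ran from -2.82 to -2.33 and from -1.17 to -0.97. The Ackr3 value moved beyond the spread between replicates only with the median of its probe sets, at -1.31, where its 4 probe sets differ by unequal amounts.

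Of all genes, 131 passed (37 rose and 94 fell), against 236 (103 and 133) with arrays shifted to the same median, 201 (89 and 112) after quantile normalization, 1296 with array weights, 75 with the replicate number as a block and 28 to 239 with 1 array left out. Leaving out any of the 6 arrays moved the count by over 1.5 times, upward without K14ΔNLef1 replicate 1 (239) and downward without K14ΔNLef1 replicate 2 (77) or 3 (69) or wild type replicate 1 (46), 2 (31) or 3 (28). The median difference of all genes was -0.05 as deposited and 0.05 with the same medians. Without K14ΔNLef1 replicate 1 and with the others quantile normalized, chosen after seeing the data, 238 passed. Of the 59 pathway genes, 0 passed, against 11 with array weights, 1 with adjacent sample numbers as a block, 1 in that last fit and 0 to 1 with 1 array left out. Ackr1 changed sign with the same medians, at 0.0286, and ran from -0.244 to 0.0934 with 1 array left out, positive without K14ΔNLef1 replicate 2 (0.0487) or wild type replicate 1. Grk5 was at -0.0599 over its brighter probe sets. The cause was not tested. Deviations of arrays with the same replicate number correlated at -0.16, -0.17 and 0.04 over genes. Those of arrays with adjacent sample numbers correlated at 0.20, -0.07 and -0.01. With 3 arrays per genotype, these values cannot tell whether either numbering marks pairs. The background correction was done before deposit, and without detection calls the distance of dim values from background was not measured.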
